A study of Homo sapiens with 16 samples.

Results

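The nuclear-encoded subunits of respiratory chain complexes I to IV were followed in C4-2B/Rx2dox cells with and without Dox. Probes were taken whose annotated symbol names a numbered NDUFA, NDUFB, NDUFC, NDUFS or NDUFV subunit of complex I, 1 of the SDHA to SDHD subunits of complex II, a UQCR subunit of complex III, or a numbered COX subunit of complex IV. The 61 probes found stand for 58 genes of the 16922 genes with a named probe, and each gene is given by its brightest probe. These are 32 genes of complex I, 3 of complex II, 7 of complex III and 16 of complex IV. Among the subunits that are not analysed here are NDUFA2, NDUFA4, NDUFA6, NDUFB9, SDHB and UQCRFS1.

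C4-2B is a castration-resistant line derived from LNCaP prostate cancer cells. Its C4-2B/Rx2dox subline was transduced with a pSLIK lentivirus and selected with hygromycin, so that Dox drives a Flag-tagged mouse Runx2 cDNA. Runx2 is a transcription factor best known for its role in bone formation. There were 4 groups of 4 cultures, 1 Illumina HumanRef-8 BeadChip array each: vehicle (distilled water) for 24 h, Dox at 250 ng/ml for 24 h (both day 1), vehicle for 48 h and Dox at 250 ng/ml for 48 h (both day 2). All 4 groups carried the construct. Dox is a tetracycline, and tetracyclines can inhibit translation on mitochondrial ribosomes. Every Dox culture also had the induced Runx2, so any part of Dox itself and that of Runx2 cannot be told apart on these arrays.

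Complex I takes electrons from NADH and passes them to ubiquinone, and complex II, which is also the succinate dehydrogenase of the citrate cycle, feeds ubiquinone from succinate. Complex III hands the electrons to cytochrome c, and complex IV, the cytochrome c oxidase, reduces oxygen with them. Complexes I, III and IV pump protons across the inner mitochondrial membrane and are built from both nuclear-encoded and mitochondrially encoded subunits, whereas all subunits of complex II are nuclear-encoded. Only mRNA was measured here, so nothing is known from these arrays of the assembled complexes or of respiration.

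Of the 58 genes, 48 were above background (detection p under 0.01) on all 4 arrays of at least 1 group. The other 10 were COX4I2, COX6A2, COX6B2, COX7A1, COX8C, NDUFB4, NDUFC2 and NDUFS6, which were above background on 0 of the 16 arrays, and NDUFA5 and NDUFB1, which were so on 1. The share of all probes above background was 40.1 to 42.2% per array. Of the prostate luminal markers, 6 of 8 had a named probe, and all 6 (FOLH1, HOXB13, KLK2, KLK3, KRT8 and KRT18) were above background on all 16 arrays. PTPRC and CD3E of the blood cell markers, COL1A2 and DCN of the stromal markers and CDH5 and PECAM1 of the endothelial markers were above background on 0 arrays, whereas COL1A1 was above it on 6 and VWF on 15. The human RUNX2 probes, 2 in number, were above background on 0 and 1 of the arrays and do not check the induction of the mouse cDNA. In bulk RNA such as this, fewer cells of a kind and less RNA per cell cannot be told apart.

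The promoters of 5 members are shown as examples. SDHA and NDUFA8 were higher with Dox on both days. NDUFA13 and COX6A1 were among the complex I and complex IV genes that were higher on day 2, and UQCR11 had the largest fall. All 5 promoters hold at least 1 of the motifs marked in capitals. Each runs 5′ to 3′ from 250 bases before to 50 bases after the gene's start, as RefSeq has it on GRCh38.p14. Capitals mark the NRF1 core (GCGCATGC), the ETS/GABP core (CCGGAAG), the YY1 core (AAGATGG) and the Runx element (ACCACA), each on either strand. NRF1, GABP and YY1 are transcription factors known to act on respiratory chain genes. The windows lie at chr5:218070-218369 on the plus strand, chr9:122159730-122160029 on the minus strand, chr19:19515975-19516274 on the plus strand, chr12:120437863-120438162 on the plus strand and chr19:1605413-1605712 on the minus strand.
SDHA: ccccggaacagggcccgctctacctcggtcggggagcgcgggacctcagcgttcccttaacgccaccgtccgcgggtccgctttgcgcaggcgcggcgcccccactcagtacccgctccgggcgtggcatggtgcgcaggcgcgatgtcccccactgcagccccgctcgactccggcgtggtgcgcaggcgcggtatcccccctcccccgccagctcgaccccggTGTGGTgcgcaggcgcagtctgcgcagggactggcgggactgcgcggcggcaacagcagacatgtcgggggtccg
NDUFA8: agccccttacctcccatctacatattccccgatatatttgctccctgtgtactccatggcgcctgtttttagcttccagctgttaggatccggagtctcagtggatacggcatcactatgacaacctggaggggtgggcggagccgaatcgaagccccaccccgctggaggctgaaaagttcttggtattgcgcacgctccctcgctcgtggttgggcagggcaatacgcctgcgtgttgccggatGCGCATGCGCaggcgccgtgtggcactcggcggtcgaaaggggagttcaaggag
NDUFA13: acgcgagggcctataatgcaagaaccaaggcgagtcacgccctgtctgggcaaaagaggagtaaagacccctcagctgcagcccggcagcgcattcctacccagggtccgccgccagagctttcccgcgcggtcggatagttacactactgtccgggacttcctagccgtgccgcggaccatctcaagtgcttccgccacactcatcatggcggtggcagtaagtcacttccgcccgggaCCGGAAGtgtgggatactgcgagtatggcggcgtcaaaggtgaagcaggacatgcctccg
COX6A1: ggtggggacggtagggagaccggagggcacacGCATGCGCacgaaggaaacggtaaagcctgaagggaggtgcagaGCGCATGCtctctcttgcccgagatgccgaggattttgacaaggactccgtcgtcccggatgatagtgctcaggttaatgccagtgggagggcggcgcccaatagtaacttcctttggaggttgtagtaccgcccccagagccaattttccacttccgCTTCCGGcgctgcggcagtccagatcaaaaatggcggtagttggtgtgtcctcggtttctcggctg
UQCR11: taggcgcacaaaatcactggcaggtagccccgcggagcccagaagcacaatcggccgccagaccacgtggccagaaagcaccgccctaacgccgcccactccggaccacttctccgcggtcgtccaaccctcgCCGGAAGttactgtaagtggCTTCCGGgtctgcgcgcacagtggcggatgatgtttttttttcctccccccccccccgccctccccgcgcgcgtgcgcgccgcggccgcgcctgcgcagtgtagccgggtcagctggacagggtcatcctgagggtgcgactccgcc

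A promoter was found for 50 of the 58 genes. The ETS/GABP core was present in 14 of them (28%), against 14.2% of 15843 promoters of protein-coding genes. The NRF1 core was present in 7 (14%, against 4.26%) and the YY1 core in 9 (18%, against 6.4%). The Runx element was present in 9 (18%, against 10.8%, and 13.1% of all 27305 promoters). These are COX6B1, COX8A, NDUFA3, NDUFS3, NDUFS8, NDUFV1, SDHA, UQCR10 and UQCRH. In these windows SDHA holds 1 Runx element, and UQCR11 holds 2 ETS/GABP cores and none of the other motifs. NDUFA13 and COX6A1, which were higher on day 2, hold an ETS/GABP core too. NDUFV3, COX7B2, COX7A2 and NDUFC1, which also changed on day 2, hold none of these motifs. The shares are descriptions of letters in these windows and were not tested. Whether a motif goes with a change or its direction was not tested either.

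Dox was compared with vehicle on each day to ask which subunits changed. On day 1, 8 of the 58 genes rose and 2 fell at an adjusted p under 0.05 (limma), against 8.92% of all probes that rose and 9.94% that fell. These counts were not stable, since 3 rose without replicate 3 of vehicle day 1, 0 fell (limma) without replicate 2 of vehicle day 1 or without replicate 2 or 3 of Dox day 1, and the authors' values gave 3 and 0, with 3 lower at an unadjusted p under 0.05. Of the 10796 probes that were detected above background on 4 arrays or more, 18.8% rose and 20.8% fell. The members' share that rose (13.8%) lay between these backgrounds, and their share that fell (3.45%) lay under both. On day 2, 21 genes (36.2%) rose and 3 (5.17%) fell, against 14.4% of all probes higher and 14.5% lower. For probes above background, 28.5% were higher and 29.9% lower on day 2. Of the 48 members above background, 20 rose and 3 fell on day 2, so that rises outnumbered falls among the members while both were about as frequent among expressed probes.

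The changes were small. The median log2 fold change of the 48 genes above background was 0.05 on day 1 and 0.17 on day 2, against -0.02 on either day for all probes above background. Over the 48, the log2 fold change ran from -0.31 to 0.41 on day 1 and from -0.81 to 0.67 on day 2. The medians over all 58 genes were 0.05 and 0.14. When arrays were scaled to a common median instead of by quantiles, 2 genes rose and 1 fell on day 1, and 13 rose and 4 fell on day 2. All 13 were among the 21. The day 1 calls of NDUFA8 and COX8A and the day 2 calls of UQCRC1, UQCRQ and COX6A1 were among those lost.

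**Figure D1:**
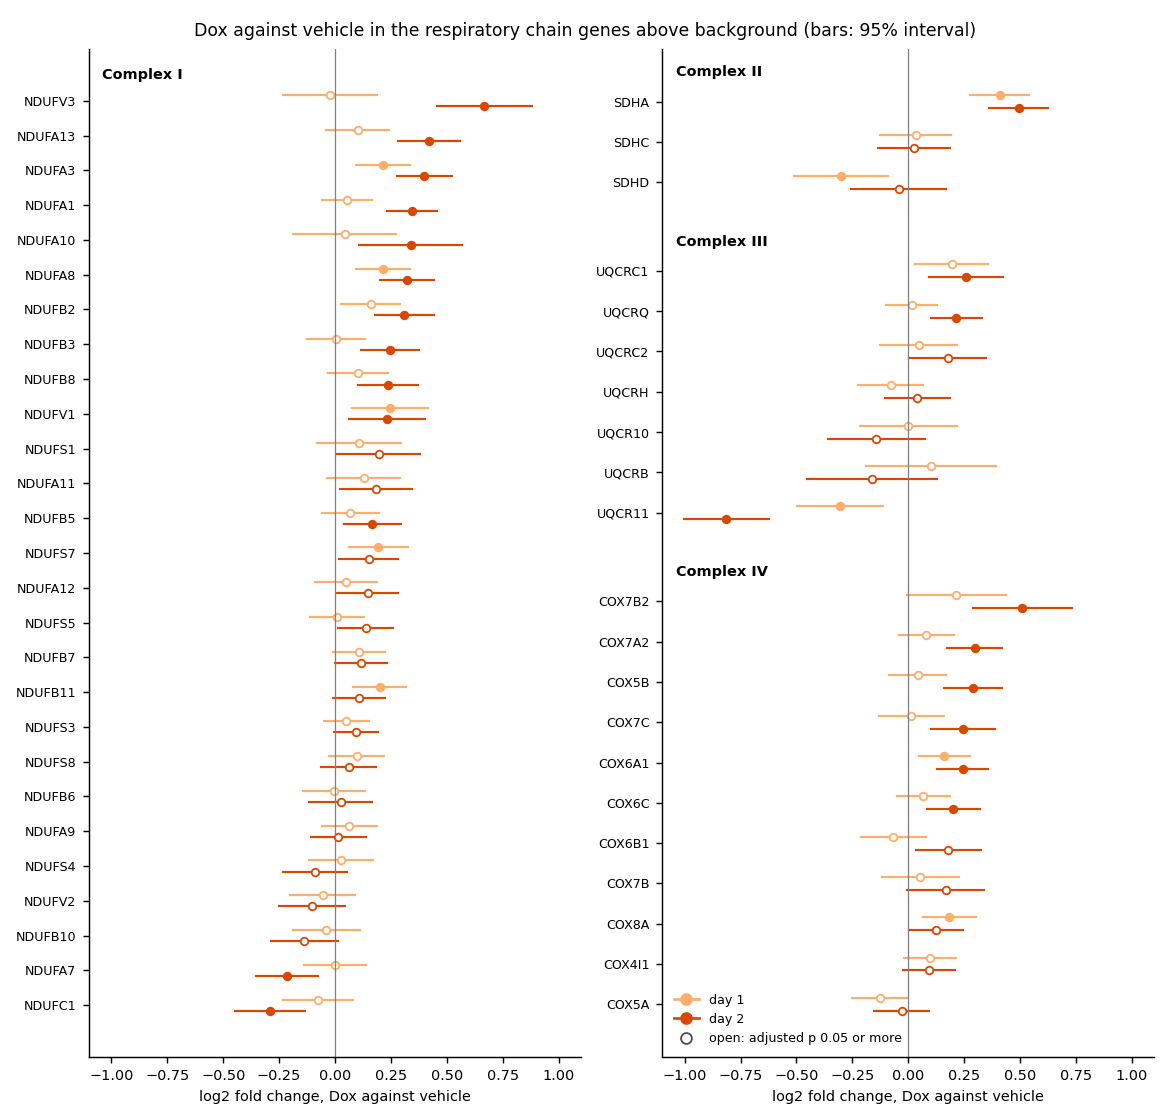
Log2 fold change of Dox against vehicle (horizontal axis) for the 48 respiratory chain genes above background, by complex, with the 95% interval as a bar, on day 1 (light) and day 2 (dark); filled points passed an adjusted p of 0.05. Most day 2 points lie to the right of 0, NDUFV3 lies farthest right at 0.67, and UQCR11 lies farthest left at -0.81.

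In complex I, 5 of 32 genes (15.6%) rose and 0 fell on day 1 (limma, with 1 lower at an unadjusted p under 0.05). Of all probes 8.92% rose and 9.94% fell on that day, and of probes above background 18.8% and 20.8%. On day 2, 12 genes of the complex rose and 2 fell. The 12 include NDUFB1, which was above background on 0 arrays of day 2. Of the 27 genes of the complex above background, 11 rose and 2 fell on day 2. The complex is L-shaped, with an N module that oxidizes NADH, a Q module that reduces ubiquinone and a P module in the membrane. Calls on day 2 were most frequent in the P module, where 10 of 19 genes rose and 1 fell. Of its 16 genes above background, 9 rose and 1 fell. Of all probes 14.4% rose and 14.5% fell on day 2, and of probes above background 28.5% and 29.9%. In the N module 2 of 8 rose and 1 fell, and in the Q module 0 of 5 passed limma's test in either direction, with 1 higher and 0 lower at an unadjusted p under 0.05. The difference between modules was not tested. Of the 6 subunits measured that belong to the conserved catalytic core, NDUFV1 and NDUFS7 rose on day 1 and NDUFV1 on day 2.

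NDUFV3 (chr21:42893309-42913299), an accessory subunit at the tip of the N module, had the largest rise of complex I on day 2. Its log2 values were 6.27, 5.88, 6.03 and 5.80 in the vehicle cultures of day 2 and 6.65, 6.73, 6.72 and 6.56 in the Dox cultures. All 4 Dox values lay above all 4 vehicle values. On day 1 the values were 6.45, 6.64, 6.24 and 6.52 with vehicle and 6.58, 6.30, 6.40 and 6.48 with Dox, and the groups overlapped. NDUFV3 was thus 1.59-fold higher on day 2 (0.67 ± 0.10 log2 units, SE, n = 4, limma's adjusted p = 3.5e-05), and its difference on day 1 did not pass (-0.02, adjusted p = 0.934). The size on day 2 depended on the processing, and ran from 0.32 to 0.76 log2 units over the alternatives run. The vehicle group itself fell by 0.47 from day 1 to day 2 (adjusted p = 0.00498), whereas the Dox group differed by 0.22 between the days (adjusted p = 0.15). The interaction of day and treatment was 0.69 (adjusted p = 0.0029).

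NDUFA13, also known as GRIM-19, a P module subunit that has been described as an apoptosis-related protein as well, followed next. Its log2 values on day 2 were 10.38, 10.43, 10.59 and 10.50 with vehicle and 10.82, 11.02, 10.93 and 10.82 with Dox. The groups did not overlap, and the gene was 1.34-fold higher (0.42 ± 0.066 log2 units, adjusted p = 5.7e-05). On day 1 it read 10.23, 10.18, 10.17 and 10.36 with vehicle and 10.31, 10.31, 10.33 and 10.40 with Dox, a difference of 0.10 that did not pass (adjusted p = 0.38). The interaction was 0.32 (adjusted p = 0.033). Both vehicle and Dox cultures were higher on day 2 than on day 1, by 0.24 and 0.56.

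NDUFA8, an accessory subunit of the P module on its intermembrane space side, was higher on both days. On day 1 its log2 values were 12.52, 12.54, 12.57 and 12.62 with vehicle and 12.80, 12.79, 12.75 and 12.77 with Dox. On day 2 they were 12.63, 12.50, 12.38 and 12.42 with vehicle and 12.83, 12.75, 12.85 and 12.79 with Dox. Dox and vehicle did not overlap on either day, with log2 fold changes of 0.21 (adjusted p = 0.0121) and 0.32 (adjusted p = 2.2e-04). NDUFV1, the core subunit that binds NADH and the flavin, rose by 0.25 on day 1 (10.01 to 10.08 with vehicle, 10.20 to 10.39 with Dox, adjusted p = 0.0403) and by 0.23 on day 2 (10.32 to 10.61, and 10.50 to 10.85, adjusted p = 0.0356). On day 2 its groups overlapped. The day 1 call was lost in 8 of the 16 fits without 1 array and the day 2 call in 5, and both were lost with the authors' values (adjusted p = 0.0877 and 0.0747). Median scaling also lost the day 2 call (adjusted p = 0.178).

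The other complex I genes above background that rose on day 2 were all of the P module, namely NDUFA3 (0.40), NDUFA1 (0.34), NDUFA10 (0.34), NDUFB2 (0.31), NDUFB3 (0.25), NDUFB8 (0.24) and NDUFB5 (0.17). NDUFA3 rose on day 1 as well (0.21). NDUFB11 (0.20) and NDUFS7 (0.19) rose on day 1 and did not pass on day 2 (0.11, adjusted p = 0.192, and 0.15, adjusted p = 0.0864). NDUFA1, an X-linked subunit needed for assembly of the complex, had an interaction of 0.29 (adjusted p = 0.0153). NDUFB1 passed the test on day 2 and for the interaction, but it was not well above background in either group of that day, so that no fold is given.

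NDUFC1 and NDUFA7 were the complex I genes that fell. NDUFC1, a small P module subunit, read 10.65, 10.68, 10.77 and 10.63 with vehicle and 10.22, 10.50, 10.44 and 10.39 with Dox on day 2. All Dox values lay below all vehicle values, and the log2 fold change was -0.29 ± 0.074 (adjusted p = 0.00505). NDUFA7, of the N module, read 11.40, 11.25, 11.35 and 11.31 with vehicle and 11.16, 11.04, 11.26 and 10.99 with Dox on day 2. Its groups overlapped at 1 array, and its log2 fold change was -0.22 (adjusted p = 0.0189), a call lost with the authors' values (0.0515) and in 3 of the 16 fits without 1 array. On day 1 NDUFC1 and NDUFA7 had log2 fold changes of -0.08 and 0.00, neither of which passed.

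**Figure D2:**
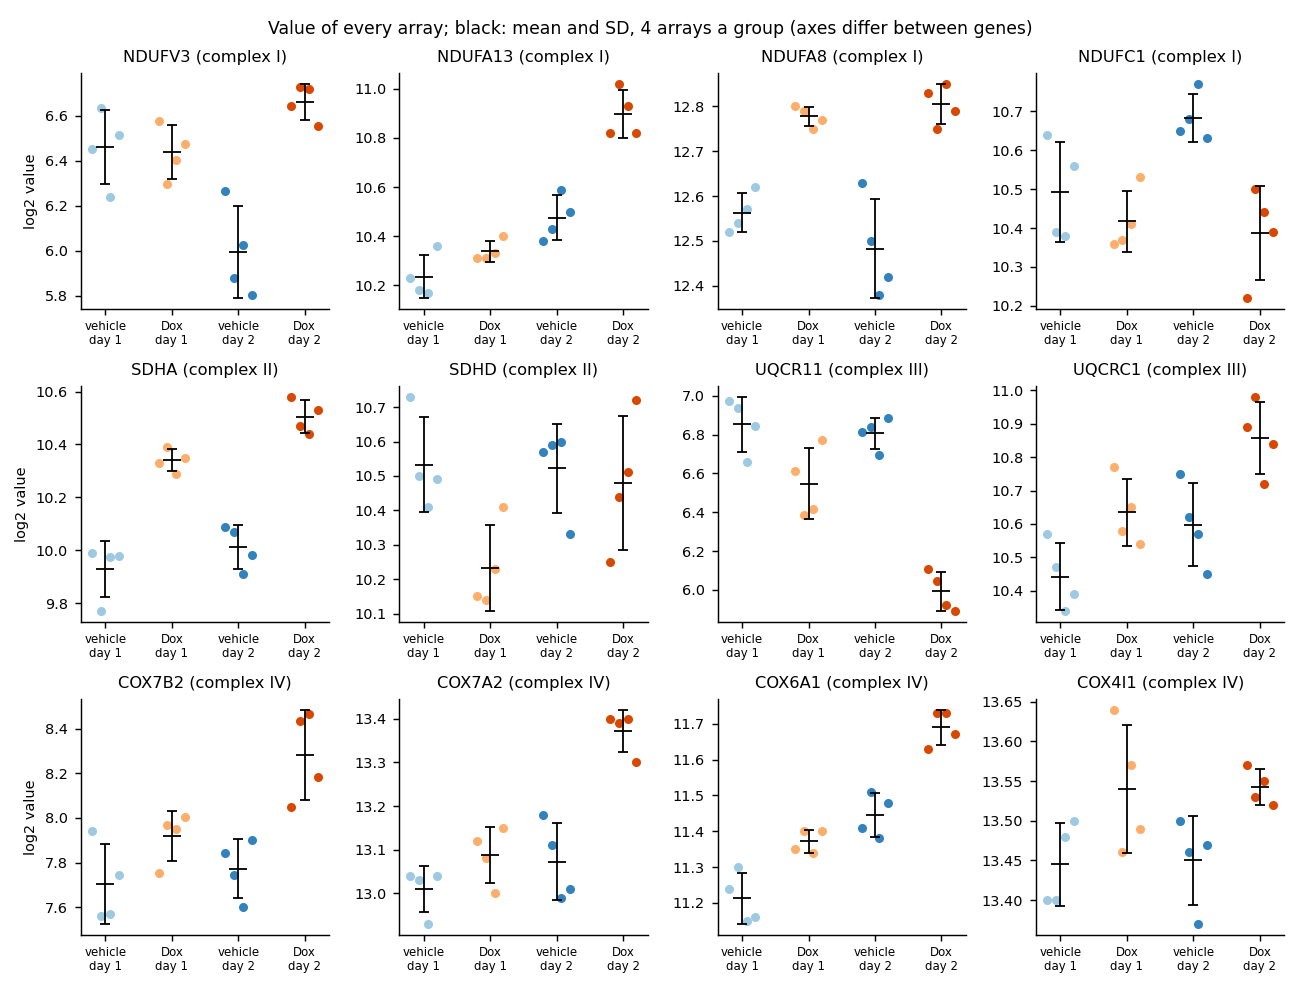
Normalized log2 value (vertical axis, a separate scale for each gene) on each array of the 4 groups (horizontal axis) for 12 genes, with the mean and SD of each group in black. SDHA, NDUFA8 and COX6A1 separate Dox from vehicle on both days. Only on day 2 does Dox lie above vehicle for NDUFV3, NDUFA13, COX7B2, COX7A2 and COX4I1, and below it for NDUFC1 and UQCR11. UQCR11 shows its lowest values in the Dox cultures of day 2.

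In complex II, the measured subunits did not move together. SDHA (chr5:218320-268746), the flavoprotein that oxidizes succinate, had the largest rise of all 58 genes on day 1. Its log2 values on day 1 were 9.99, 9.77, 9.98 and 9.98 with vehicle and 10.33, 10.39, 10.29 and 10.35 with Dox. On day 2 they were 10.09, 10.07, 9.91 and 9.98 with vehicle and 10.58, 10.47, 10.44 and 10.53 with Dox. The groups did not overlap on either day. SDHA was 1.33-fold higher on day 1 (0.41 ± 0.063 log2 units, adjusted p = 1.1e-04) and 1.41-fold higher on day 2 (0.49 ± 0.063, adjusted p = 5.7e-06).

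SDHC and SDHD are the membrane anchors of complex II. SDHC lay between 8.11 and 8.54 on all 16 arrays, with log2 fold changes of 0.03 on day 1 (95% interval -0.13 to 0.19) and 0.03 on day 2 (-0.13 to 0.18). SDHD read 10.73, 10.50, 10.41 and 10.49 with vehicle and 10.15, 10.14, 10.23 and 10.41 with Dox on day 1, groups that met at 10.41, and its log2 fold change was -0.30 (adjusted p = 0.044). On day 2 it read 10.57, 10.59, 10.60 and 10.33 with vehicle and 10.25, 10.44, 10.51 and 10.72 with Dox (-0.04, adjusted p = 0.836). The interaction for SDHD was 0.26 and did not pass (adjusted p = 0.337). The day 1 call for SDHD was lost in 11 of the 16 fits that left out 1 array each, and with the authors' normalized values (adjusted p = 0.0889).

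In complex III, 1 of 7 genes (14.3%) fell and 0 rose on day 1 (limma, with 1 higher at an unadjusted p under 0.05). On day 2, 2 (28.6%) rose and 1 (14.3%) fell. Of all probes 8.92% rose and 9.94% fell on day 1, and 14.4% and 14.5% on day 2. Of probes above background these were 18.8% and 20.8%, and 28.5% and 29.9%. The share of the complex that rose on day 2 was thus near that of probes above background. UQCR11 (chr19:1597169-1605462), a small subunit of the complex, fell on both days. On day 1 its log2 values were 6.97, 6.94, 6.66 and 6.84 with vehicle and 6.61, 6.39, 6.42 and 6.77 with Dox, and the groups overlapped. On day 2 they were 6.81, 6.84, 6.69 and 6.88 with vehicle and 6.11, 6.05, 5.93 and 5.89 with Dox, with no overlap. The log2 fold change was -0.31 ± 0.090 on day 1 (adjusted p = 0.0227) and -0.81 on day 2 (1.76-fold lower, adjusted p = 1.1e-06). This was the largest change of any member in either direction on day 2 as first fitted, and the interaction of -0.51 passed (adjusted p = 0.0137). Over the alternatives run, the log2 fold change of UQCR11 on day 2 ran from -0.86 to -0.40. The day 1 call was lost with the authors' values (adjusted p = 0.0513) and in 4 of the 16 fits without 1 array. The Dox group fell by 0.55 from day 1 to day 2 (adjusted p = 1.7e-04), whereas the vehicle groups differed by -0.05.

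UQCRC1, a core protein of complex III, read 10.75, 10.62, 10.57 and 10.45 with vehicle and 10.89, 10.98, 10.72 and 10.84 with Dox on day 2. This was a rise of 0.26 (limma's adjusted p = 0.0169) with 1 Dox array inside the vehicle range. The call was lost with median scaling (0.157) and in 2 of the 16 fits without 1 array. On day 1 UQCRC1 had 0.19 (adjusted p = 0.102), which passed under 3 alternatives to the processing (0.0365 to 0.049). UQCRQ, a small subunit near cytochrome b, read 13.36, 13.19, 13.21 and 13.30 with vehicle and 13.51, 13.48, 13.54 and 13.39 with Dox on day 2. Its groups did not overlap, and it rose by 0.21 (adjusted p = 0.00493). UQCRC2, UQCRH and UQCRB had log2 fold changes of 0.18, 0.04 and -0.16 on day 2, none of which passed.

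UQCR10 was read by 3 probes that did not give the same result. The brightest probe, which stands for the gene here, read 9.26, 9.11, 9.09 and 9.27 with vehicle and 9.06, 9.12, 9.22 and 8.76 with Dox on day 2, and did not pass (-0.14, adjusted p = 0.38). The second read 8.56, 8.51, 8.48 and 8.43 with vehicle and 8.86, 9.13, 8.91 and 8.91 with Dox, a rise of 0.46 (adjusted p = 2.2e-05) with no overlap. The remaining probe rose by 0.45 (adjusted p = 0.00301), again with no overlap on day 2. Which transcripts of UQCR10 each probe reads was not tested, and the gene's direction therefore depends on the probe.

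**Figure D3:**
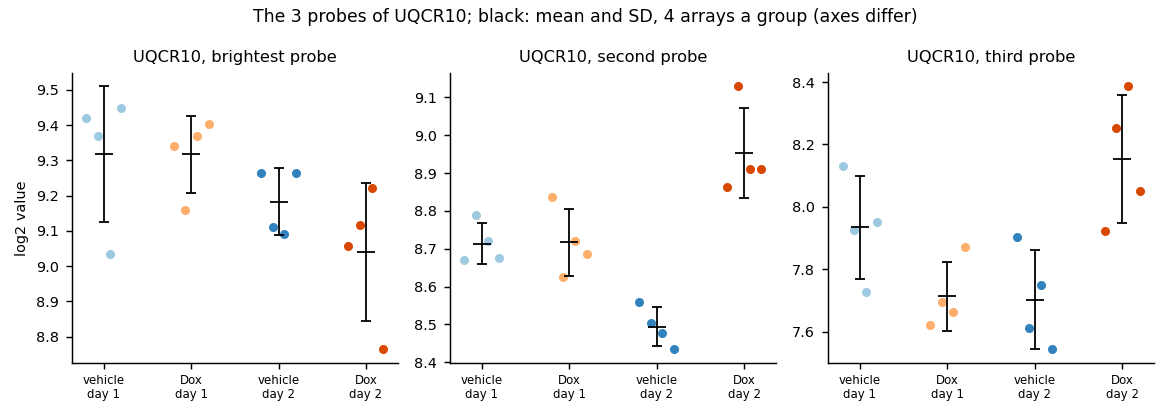
Normalized log2 value (vertical axis, a separate scale for each probe) on each array of the 4 groups (horizontal axis) for the 3 probes of UQCR10, with the mean and SD of each group in black. On day 2 the Dox arrays lie above all vehicle arrays in the second probe and in the dimmest, and overlap them in the brightest.

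In complex IV, 2 of 16 genes (12.5%) rose on day 1 and 6 (37.5%) on day 2. On either day 0 fell (limma, with 1 lower on day 1 and 0 on day 2 at an unadjusted p under 0.05). Of all probes 8.92% rose and 9.94% fell on day 1, and 14.4% and 14.5% on day 2. Of probes above background these were 18.8% and 20.8%, and 28.5% and 29.9%. Several subunits of complex IV exist as isoforms from separate genes, some of them limited to particular tissues. Of the 10 ubiquitous subunits measured, all of them above background, 5 rose on day 2 (COX7A2, COX5B, COX7C, COX6A1 and COX6C, by 0.20 to 0.30). Of the 6 alternative isoforms, COX4I2, COX6A2, COX6B2, COX7A1 and COX8C had no array on which they were above background. COX7B2 alone of these was above background on all 16.

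COX7B2 (chr4:46734827-46909245), an isoform described mainly in testis, had the largest rise of complex IV. Its log2 values were 7.84, 7.75, 7.6 and 7.90 with vehicle and 8.05, 8.44, 8.47 and 8.18 with Dox on day 2. The groups did not overlap, and it was 1.42-fold higher (0.51 ± 0.105 log2 units, adjusted p = 9.0e-04). On day 1 it read 7.94, 7.56, 7.57 and 7.75 with vehicle and 7.76, 7.97, 7.95 and 8.01 with Dox, and did not pass (0.21, adjusted p = 0.202). Its ubiquitous counterpart COX7B had a log2 fold change of 0.17 on day 2 that did not pass (adjusted p = 0.158).

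COX7A2, the ubiquitous counterpart of the muscle isoform COX7A1, read 13.18, 13.11, 12.99 and 13.01 with vehicle and 13.40, 13.39, 13.40 and 13.30 with Dox on day 2. It rose by 0.30 (adjusted p = 5.6e-04) with no overlap. COX6A1, the ubiquitous counterpart of COX6A2, read 11.41, 11.51, 11.38 and 11.48 with vehicle and 11.63, 11.73, 11.73 and 11.67 with Dox on day 2, a rise of 0.24 (adjusted p = 0.00166). On day 1 COX6A1 rose by 0.16 (adjusted p = 0.0446), and here too Dox and vehicle did not overlap, although 11 of the 16 fits without 1 array lost the call. COX8A, a small subunit with a testis isoform COX8C, rose by 0.18 on day 1 (13.19 to 13.35 with vehicle, 13.45 to 13.53 with Dox, adjusted p = 0.0293) and had a log2 fold change of 0.12 on day 2 (adjusted p = 0.123). Its day 1 call was lost with the authors' values (limma's adjusted p = 0.0837) and in 4 of the 16 fits without 1 array. On day 2 it passed under 4 alternatives to the processing (adjusted p = 0.0101 to 0.0454).

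COX4I1, the regulatory subunit to which ATP binds, had log2 fold changes of 0.10 on day 1 (95% interval -0.02 to 0.21) and 0.09 on day 2 (-0.02 to 0.21). COX6B1, a subunit on the intermembrane space side, had -0.07 on day 1 and 0.18 on day 2 (adjusted p = 0.0646). COX5A, which lies next to COX4I1 in the complex, had -0.13 and -0.03. None of these passed as first fitted. COX6B1 on day 2 passed under 5 alternatives to the processing (limma's adjusted p = 0.00842 to 0.0353), and COX4I1 on day 2 under cyclic loess (0.0221).

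The days were also compared within each treatment. Between the vehicle groups, 5 members (8.62%) were higher on day 2 and 2 (3.45%) lower. Of all probes 5.29% were higher and 5.27% lower, and of probes above background 11.2% and 11.2%. The largest difference among the members that were higher was that of NDUFV1 (0.43, limma's adjusted p = 0.00192). Between the Dox groups, 16 members (27.6%) were higher on day 2 and 1 (1.72%) lower. Of all probes 10.1% were higher and 9.41% lower, and of probes above background 20.4% and 20.3%. This split turned on the scaling, since scaling the arrays to a common median gave 4 higher and 6 lower between the Dox groups, and 1 higher and 3 lower between the vehicle groups. The interaction passed for 4 members (6.9%) with a larger value on day 2 and for 1 (1.72%) with a lower value. This compares with 5.34% and 5.6% of all probes and with 11% and 12.1% of probes above background. The count of 4 ran from 1 (median scaling, and the authors' values) to 9 (a trended, robust fit). The comparisons of the days share their arrays with those of Dox against vehicle.

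The array's other genes of the respiratory chain were set beside these. CYCS, the mobile electron carrier cytochrome c, rose by 0.79 on day 2 (adjusted p = 1.2e-07) after -0.14 on day 1 (adjusted p = 0.235). CYC1, the cytochrome c1 of complex III, fell by 0.17 (adjusted p = 0.0212) and NDUFAB1, the acyl carrier protein of complex I, fell by 0.22 (adjusted p = 0.0117) on day 2. Of 19 ATP synthase genes, 1 rose and 1 fell on day 1, and 5 rose and 0 fell on day 2 (limma, with 1 lower at an unadjusted p under 0.05). On day 2 the share that rose was 26.3%, against 28.5% of probes above background. ATP5IF1, the inhibitor of the synthase, rose on both days (0.25 and 0.31), and the others that rose on day 2 were ATPAF2 (0.32), ATP5MC2 (0.24), DMAC2L (0.24) and ATP5F1A (0.22). ATP5MJ fell on day 1 (-0.34).

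The factors that build the complexes were counted in the same way. Of 18 complex I assembly factors, 0 rose (limma, with 1 higher at an unadjusted p under 0.05) and 5 fell on day 1, and 3 rose and 7 fell on day 2. The falls were 27.8% and 38.9% of the list, against 20.8% and 29.9% of probes above background. NDUFAF4 fell on both days (-0.83 and -0.58), as did NDUFAF5 (-0.34 and -0.67), and on day 2 COA1 (-0.61) and NDUFAF2 (-0.47) fell as well. Those that rose on day 2 were NDUFAF1, NDUFAF6 and DMAC1. Of 30 assembly factors of complexes II, III and IV, 2 rose and 5 fell on day 1, and 10 rose and 5 fell on day 2. The 33.3% that rose on day 2 compare with 28.5% of probes above background, and the 16.7% that fell on each day with 20.8% and 29.9%. CMC2 fell most on both days (-0.49 and -0.97). On day 2 LRPPRC, which stabilizes mitochondrial mRNAs, fell by 0.68, and the complex IV factors COX20 (0.56) and COX14 (0.54) rose. SDHAF1, an assembly factor of complex II, fell on both days (-0.39 and -0.38), while SDHA rose.

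Of 19 regulators of mitochondrial biogenesis, 0 rose (limma, also 0 at an unadjusted p under 0.05) and 7 fell on day 1, and 1 rose and 10 fell on day 2. The falls were 36.8% and 52.6% of the list, against 9.94% and 14.5% of all probes and 20.8% and 29.9% of those above background. They include PPARGC1A on both days, which was above background on 0 arrays. MYC fell by 1.11 and 1.48 on the log2 scale (adjusted p = 1.4e-07 and 9.3e-10). The mitochondrial DNA helicase TWNK fell by 0.80 and 0.95, the coactivator PPRC1 by 0.70 and 0.77, and TFAM, which packages and transcribes mitochondrial DNA, by 0.58 and 0.70. ESRRA, a nuclear receptor that acts on respiratory chain genes, was the 1 that rose, on day 2 (0.38, adjusted p = 5.6e-04). Of the factors whose motifs were searched, NRF1 and GABPA were above background on 0 arrays, whereas the GABP subunit GABPB1 fell on both days (-0.52 and -0.56) and YY1 fell on day 2 (-0.35, adjusted p = 0.0481).

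Of 78 genes of mitochondrial ribosomal proteins, 1 of them a pseudogene, 5 rose and 20 fell on day 1, and 13 rose and 21 fell on day 2. The falls were 25.6% and 26.9% of the list, against 20.8% and 29.9% of probes above background. The median log2 fold change of the list was -0.08 on day 1 and -0.07 on day 2, against 0.05 and 0.14 for the respiratory chain genes. MRPL42 fell on both days (-0.57 and -0.65), MRPS35 fell on day 1 (-0.55), and MRPL11 (-0.78) and MRPS2 (-0.69) fell on day 2. The difference between these lists was not tested.

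**Figure D4:**
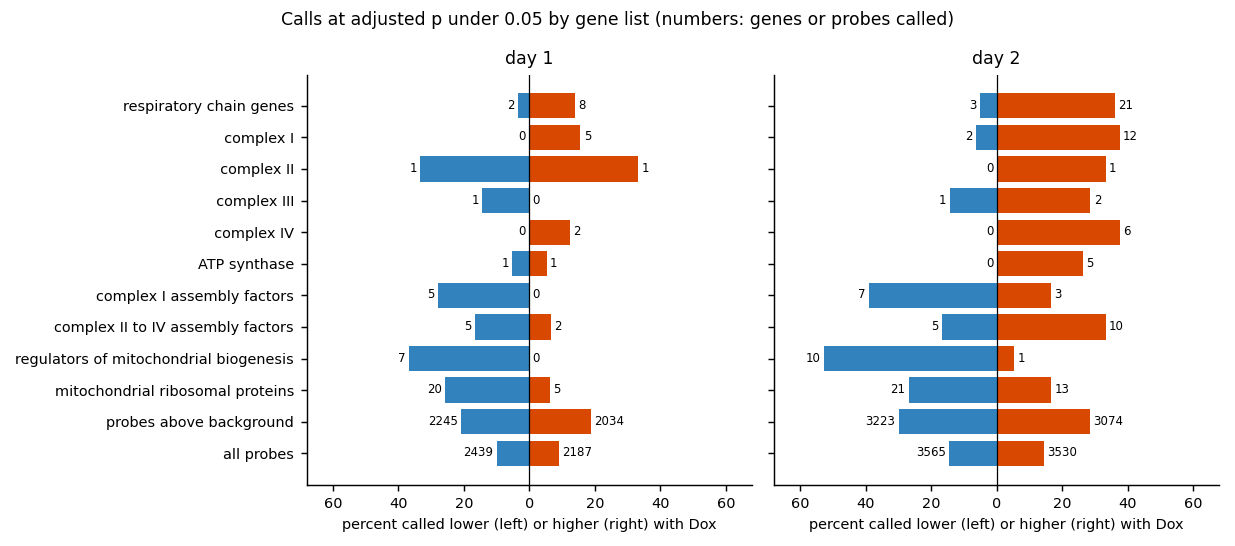
Percent of the genes or probes of each list called lower (left of 0) or higher (right of 0) with Dox (horizontal axis), by list (vertical axis), on day 1 and day 2, with the number called at each bar. On day 2 the respiratory chain genes have 21 calls to the right and 3 to the left, whereas the regulators of mitochondrial biogenesis have 1 and 10.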

How the data were processed

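RNA of 16 cultures (4 groups of 4) was measured with 1 Illumina BeadChip array each. The authors deposited the signal intensity of each probe as exported from BeadStudio, with no background correction or scaling between arrays, and beside it the detection p-value from BeadStudio, which ranks a probe against the array's 664 negative controls. A second deposited table gives log2 values that the authors had put through model-based background correction and quantile normalization. Its median was 4.673 on each array, so arrays are on 1 common scale, and it served only as an alternative.

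From the intensities, the background was removed by limma's nec function, which derives the control probes' distribution from the detection p-values (normal-exponential model, offset 16), followed by quantile normalization and log2. A fold change of a dim gene is understated by the offset. The 4 group means were fitted to all 16 arrays with lmFit and eBayes (R 4.3.3, limma 3.58.1, statmod 1.5.0). An adjusted p is limma's moderated, two-sided p after Benjamini-Hochberg adjustment over all 24526 probes, with a threshold of 0.05. A probe was above background where its detection p was under 0.01, and precision is limited by how many arrays there were. The 4 cultures of a group are the study's biological replicates, so p-values measure the spread between these cultures, and replicate arrays correlated at 0.9933 to 0.9963 over all probes. Which chip held which array was not given in the sources used here.

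Probes were named from the platform annotation (21834 probes with 1 gene symbol, 0 with several and 2692 with none here). Positions and promoters are those of RefSeq on GRCh38.p14, and where in its transcript each probe lies was not used here. The members and lists were chosen with earlier results of these data known. Named with single values are, for each complex and day, the 2 largest rises and falls past the threshold, the SDH genes, the 3 largest interactions in each direction, the isoform families and genes whose probes disagree (26 genes), with up to 4 changes a day in each further list. Others were named after their values were seen. The tests were checked on simulated data. Same-numbered arrays of different groups were checked for shared deviations. Alternatives were no background correction, an offset of 50, median scaling, cyclic loess, the authors' values, a filter on dim probes, a trended and robust fit, an ordinary linear model, a replicate block, another probe of a gene and leaving out each array. Of the columns with values per sample, 0 were unused.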

Additional observations from a re-analysis of the deposited data

Results flagged for a closer look

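Single arrays stood apart from the other 3 of their group in 4 of 104 groups tested (3.85%), and chance sets about 1 in 20 apart. SDHA read 9.77 on replicate 2 of vehicle day 1, against 9.98 to 9.99 on the others. SDHD read 10.33 on replicate 4 of vehicle day 2, against 10.57 to 10.60. COX7A2 read 12.93 on replicate 3 of vehicle day 1, against 13.03 to 13.04, and 13.30 on replicate 4 of Dox day 2, against 13.39 to 13.40.

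The effect of Dox differed between the days, by the interaction in limma's fit, for 4 genes above background, each given by its brightest probe. It was larger on day 2 by 0.69 for NDUFV3, 0.32 for NDUFA13 and 0.29 for NDUFA1 on the log2 scale, and lower on day 2 for UQCR11 (-0.51). The probe of NDUFB1 also passed, with a fitted value of 0.47, but it was above background on 1 of 16 arrays and on 0 arrays of day 2, so that this value measures no difference in level. For UQCR10 the 2 other probes passed (0.46, limma's adjusted p = 0.00295, and 0.67, adjusted p = 0.00638). Its brightest probe did not (-0.14, adjusted p = 0.68).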

How the results depend on the processing

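Most named calls kept their side of the threshold, and among the exceptions SDHD, NDUFV1 and COX6A1 on day 1 were lost under 3 or 4 of the other alternatives run besides leaving out an array. SDHA on both days stayed past it under all alternatives run. On day 2 the rises of NDUFV3, NDUFA13, NDUFA8, COX7B2 and COX7A2 and the falls of UQCR11 and NDUFC1 did so too. The sign of UQCR10 on day 2 turned with the probe, to 0.46 from -0.14. The cause of the changes listed here was not tested. Without background correction, 8 members were higher on day 2 between the vehicle groups and 2 lower between the Dox groups, 8 had a positive interaction, and 4 fell over both days (23 rose and 2 fell as first fitted). An offset of 50 gave 8 positive interactions. Median scaling gave 2 higher and 1 lower on day 1, 13 higher on day 2, 14 higher and 4 lower over both days, 1 positive interaction, 1 higher between the vehicle groups, and 4 higher and 6 lower between the Dox groups. Over all probes it gave 1776 higher and 3964 lower between the Dox groups. Cyclic loess gave 5 higher on day 1 and 7 positive interactions. The authors' values gave 3 higher and 0 lower on day 1 (limma, with 3 lower at an unadjusted p under 0.05), 1 positive interaction and 3 higher between the vehicle groups. The ordinary linear model without moderation gave 1 lower on day 1. The filter on dim probes gave 1 lower between the vehicle groups and 2 between the Dox groups. The trended, robust fit gave 4 lower over both days, 9 positive interactions and 2 lower between the Dox groups.

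Arrays with the same replicate number were not taken to share more than a number in the main fit. Their deviations correlated at -0.316 to 0.416, above 0.1 in 6 of 24 pairs, and 4 of 16 arrays matched their own number best. The highest lay among the arrays of replicate 1, at 0.416 between Dox day 1 and Dox day 2. Vehicle day 1 and vehicle day 2 gave 0.38 there, and Dox day 1 and vehicle day 2 gave 0.335. Replicate 1 of vehicle day 1 and of Dox day 2 gave -0.0329. Arrays of different numbers reached at most 0.235. With the replicate block, 1 member fell on day 1 and 6 rose, against 2 and 8, and 19 rose on day 2.

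Leaving out each array in turn gave 3 to 8 higher and 0 to 2 lower on day 1, 17 to 22 higher and 2 to 3 lower on day 2, and 18 to 24 higher and 2 to 3 lower over both days. It gave 2 to 5 positive and 1 to 1 negative interactions, 3 to 5 higher and 2 to 3 lower between the vehicle groups, and 11 to 17 higher and 1 to 3 lower between the Dox groups. On day 1, 3 rose without replicate 3 of vehicle day 1, and 0 fell without replicate 2 of vehicle day 1 or replicates 2 or 3 of Dox day 1. Between the Dox groups, 3 were lower without replicate 3 of Dox day 2.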
